A study of Mus musculus with 4 samples.

Results

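Out of 4638 listed Zac1 peaks, 465 strong sites were chosen by their ChIP reads on both DNA strands: the busiest window of each strand had to hold 25 or more reads. As background, a bound factor leaves forward reads on its left and reverse reads on its right, so a site seen on both strands has support from either side. Zac1 (gene symbol Plagl1) belongs to the zinc finger transcription factors, and its gene is imprinted and expressed from the paternal copy. It binds GC-rich DNA and is known for its place in a network of imprinted growth genes, among them Igf2, H19, Cdkn1c and Dlk1. As a transfected factor it can arrest the cell cycle and induce apoptosis in several cell lines.

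The cells were Neuro-2A, a mouse neuroblastoma line whose strain is labelled Swiss Albino, and every library came from cells transfected with the expression plasmid pRK5-Zac1 and fixed 16 hours later. The 2 ChIP libraries were made with an anti-Zac1 antibody produced in house, and the 2 input libraries were chromatin without antibody. Each peak carries 1 ChIP and 1 input value, and whether both libraries of a group entered it is not given in the sources used here. There is therefore no replicate check and no test between conditions, and all intervals cover counting error only. Untransfected cells and a control antibody were not analysed here, so binding of endogenous Zac1, binding forced by overexpression and signal of the antibody itself cannot be told apart. Within the listed peaks there were 60319 ChIP and 2807 input reads in strong sites, 15.5% and 13.8% of all reads in the table. Library totals were not used here. Positions are on mm9. No gene positions of that build were used here, so sites were placed by chromosome and 1 Mb bin, and neither distances to genes nor exons, introns and promoters were measured. No sequence of that build was used here either.

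The reads on the 2 strands chose the sites and are given as a description. On the weaker strand, the busiest window of the median strong site had 27 reads (interquartile range 25 to 30), against 18 (17 to 20) in the 4173 other peaks, and no listed peak had fewer than 16. A total of 127 sites reached 30 reads on both strands and 10 reached 40. The weaker strand was the forward strand in 208 sites and the reverse strand in 210, and both strands were equal in 47. Forward reads made up 50.1% of ChIP reads in strong sites. Neither strand was favoured.

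Just inside it, the 119 sites with exactly 25 reads had a median of 102 ChIP reads and 5.03 input reads per site. Just outside, the 138 peaks with 24 reads had a median of 97.5 ChIP reads and 4.73 input reads per site. These peaks differ by 1 read in the value that chose the sites, so the figures describe the limit only.

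**Figure D1:**
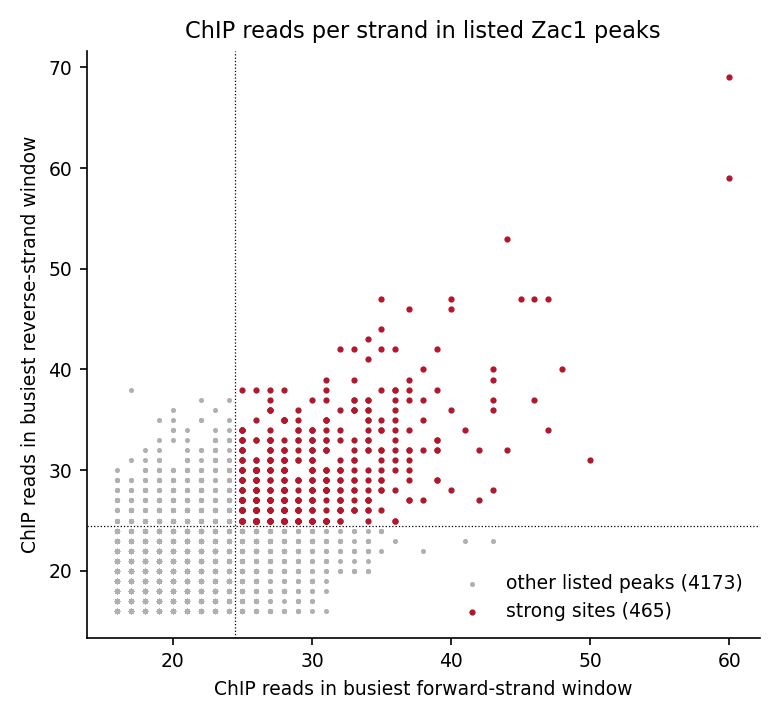
ChIP reads in the busiest window of the forward strand (x axis) and of the reverse strand (y axis) for each listed peak, strong sites in red and other peaks in grey, with dotted lines at the limit of 25 reads. The 465 strong sites lie beyond both lines, next to the 4173 others, and 10 of them reach 40 reads on both strands.

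The site with the highest strand minimum of all was on chromosome 11 (108872984 to 108873214), with 60 forward and 69 reverse reads in the busiest windows. It held 310 ChIP and 42 input reads, a 10.6-fold excess over scaled input (95% exact interval 7.66 to 15.01). The next, on chromosome 3 (5860537 to 5860826), had 60 and 59 reads in the busiest windows and 133 ChIP reads against 11 input reads (17.4-fold, 9.40 to 35.6). The third, on chromosome 5 (147072856 to 147072885), had 47 reads on each strand and 163 ChIP reads against 17 input reads (13.8-fold, 8.34 to 24.2). All 3 lay below the pooled fold of strong sites, none had another listed peak within 10 kb, and all 3 had high input in 1 window (described further on), whose part in their reads was not tested.

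The remaining 7 of the top 10 were more mixed. One on chromosome 12 (110656103 to 110656205) had the most ChIP reads of any listed peak, 409, with 28 in the input (20.98-fold, 14.3 to 31.98). One on chromosome 8 (125955660 to 125955838) had the most input reads of any strong site, 57 beside 207 ChIP reads, and its fold of 5.22 (3.87 to 7.12) was the lowest among the strong sites that had input reads. On chromosome 13 (97985018 to 97985084) 134 ChIP reads were found for only 2 in the input (96.3-fold, 26.1 to 802.9), and on chromosome 1 (90131719 to 90131768) 194 for 7 (39.8-fold, 18.96 to 100.3). Many reads on both strands therefore came with folds that differed far beyond counting error.

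Chromosome 15 gave the other 3 of these 10. They had 241 ChIP and 16 input reads (82997449 to 82998004), 167 and 8 (81527583 to 81527612), and 143 and 13 (83004522 to 83004561). The first and the last of these lay within the same cluster of strong sites, described further on.

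Input reads, which the rule did not use, were more numerous at strong sites than at the others. Strong sites held 6.04 input reads per site (95% exact Poisson interval 5.82 to 6.26) against 4.20 (4.14 to 4.26) in the others, a ratio of 1.44, while mean ChIP reads differed by a ratio of 1.65. Medians were 119 ChIP reads (94 to 152 between quartiles) and 5 input reads (3 to 8). Input was higher at strong sites on 16 of the 17 chromosomes that had any, the exception being chromosome 18 with its single strong site. The 5 sites with most input reads were those with 57 and 42 reads on chromosomes 8 and 11 and with 28 on chromosome 12 named above, one with 31 input and 304 ChIP reads on chromosome 15 (99438250 to 99438512), and one with 21 and 240 on chromosome 8 (124846335 to 124847074), which shares its input count with a site of 220 ChIP reads on chromosome 4 (140695371 to 140695406). They carried 179 of the 2807 reads, and without them the mean was 5.71 (5.50 to 5.94).

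At like ChIP reads the order was the opposite. Among peaks with 60 to 79 ChIP reads, strong sites had 2.89 input reads per site (2.37 to 3.49, 37 sites) and other peaks 3.71 (3.61 to 3.82, 1414 peaks). With 100 to 119 ChIP reads the values were 5.02 (4.56 to 5.52) and 5.76 (5.53 to 6.01), and with 120 to 149 they were 6.03 (5.57 to 6.51) and 7.02 (6.69 to 7.36). In these 3 classes the intervals did not overlap. With 80 to 99 ChIP reads, 4.26 (3.89 to 4.66) stood against 4.76 (4.61 to 4.91), and with 150 to 199, 7.69 (7.10 to 8.31) against 8.06 (7.55 to 8.60), with overlapping intervals. With 200 to 299 ChIP reads the strong sites were higher, at 10.9 (9.89 to 12.1, 36 sites) against 9.85 (8.21 to 11.7, 13 peaks), again with overlap. The 4 strong sites with 300 or more ChIP reads had no counterpart, since the other peaks reached at most 272. The other peaks of these classes were also longer, with a median of 107 against 82 bp at 100 to 119 ChIP reads and 129.5 against 88 bp at 120 to 149, and the part of length in the difference was not tested. The span over which reads were counted is not given in the sources used here.

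**Figure D2:**
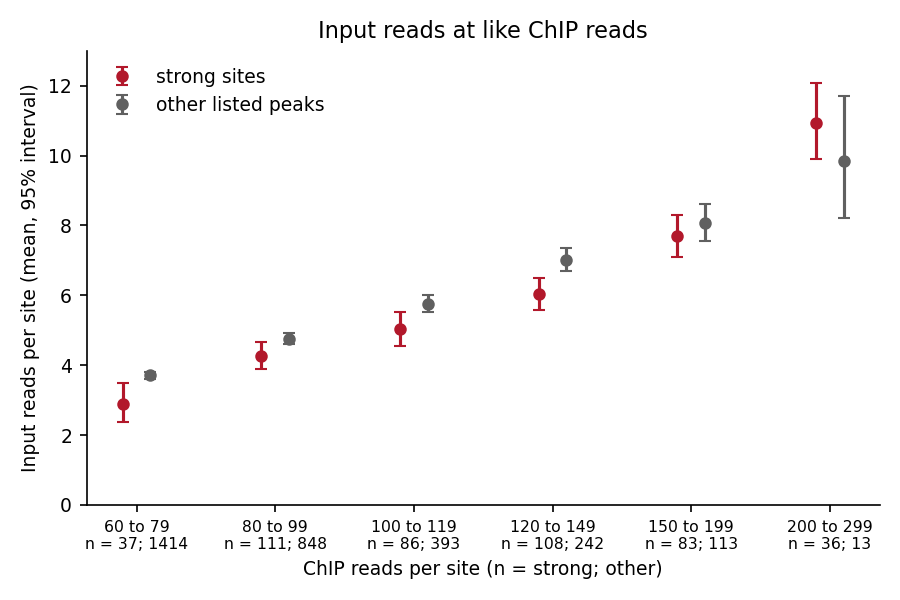
Mean input reads per site (y axis, not scaled, with exact 95% Poisson intervals) in 6 classes of ChIP reads per site (x axis), strong sites in red and other listed peaks in grey. Strong sites are lower in 5 of the 6 classes, and the intervals are apart at 60 to 79, 100 to 119 and 120 to 149 ChIP reads.

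Over all strong sites ChIP reads exceeded scaled input 30.9-fold (29.7 to 32.1), against 26.9-fold (26.5 to 27.3) in the others. The fold contains the reads that chose the sites, so it describes them and supports nothing further. No input read at all was found at 8 strong sites (1.72%, exact interval 0.746% to 3.36%) and at 234 others (5.61%). These 8 sites had between 62 and 131 ChIP reads. No other listed peak lay within 10 kb of 7 of the 8, against 43.7% of all strong sites and 60.6% of the others. The one with most ChIP reads was on chromosome 7 (28066222 to 28066325). Of the sites with input reads, the one with 174 ChIP reads and 1 input read on chromosome 7 (150345484 to 150345531) had a fold of 250.0, with an interval from 44.3 to 9929.

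A small set of strong sites stood out by the input reads of 1 window. In the busiest input window, 5 strong sites held 10 or more input reads, against 1 of the 4173 other peaks. At a limit of 8 input reads there were the same 5 strong sites and 12 other peaks. These 5 strong sites were the 3 sites with the highest strand minimum, on chromosomes 11, 3 and 5, and 2 sites on chromosome 8, at 125955660 to 125955838 and at 20020345 to 20020374. The last had 93 ChIP and 15 input reads (8.91-fold, 5.13 to 16.6). All 5 were without another listed peak within 10 kb, which held for 43.7% of all strong sites. The site on chromosome 3 was the most isolated of all strong sites, 3487 kb from the nearest peak. The deposited table orders peaks from 1 by the authors' ranks. Those of the 5 sites lay between 3346 and 4675, in the later part of the list. The sites were picked by input reads, which enter the deposited window fold, so late ranks are in part built in. The 5 sites had high input in 1 window beside their ChIP reads, and the part of DNA amount in their strand strength and folds was not tested. Repeats, copy number and regions of known artefact were not checked here. At these 5 sites, as at the other strong sites, no test told Zac1 binding and DNA amount apart.

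**Figure D3:**
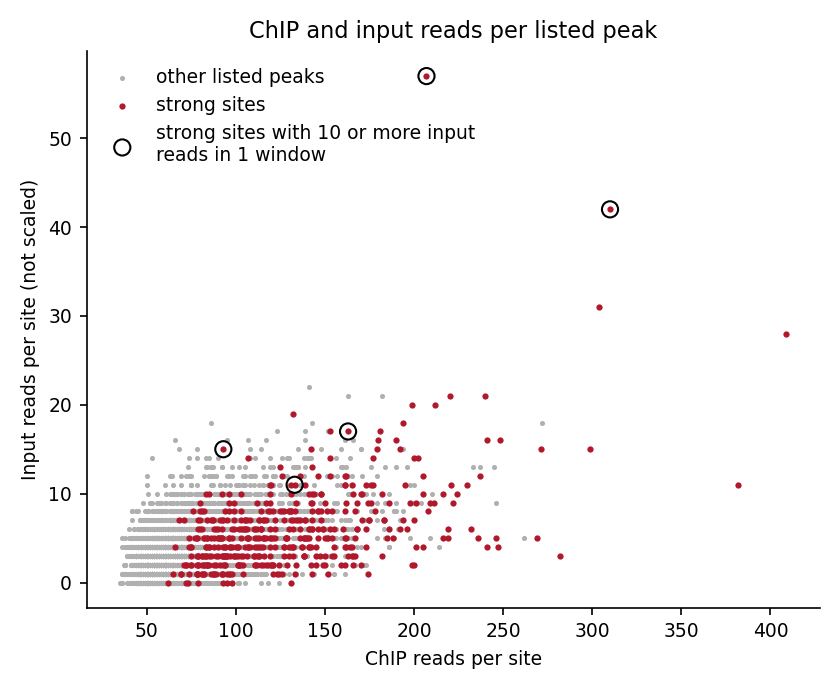
ChIP reads (x axis) and unscaled input reads (y axis) of each listed peak, strong sites in red and others in grey, with circles around the 5 strong sites that held 10 or more input reads in 1 window. The circled sites at 57 and 42 input reads lie above all others, whereas the site with 409 ChIP reads has 28.

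The authors' rank and strand strength overlapped in part. Of the 97 listed peaks with ranks up to 100, 93 were strong sites, and of the 494 up to 500, 263 were. At the other end 44 strong sites ranked beyond 3000 and 13 beyond 4000. In the authors' deposited table the log2 window fold of strong sites had a median of 5.49 (interquartile range 5.13 to 5.70), and 71 strong sites (15.3%) lay below the median of all listed peaks. Those 71 held 9.56 input reads per site (8.86 to 10.3) against 5.40 (5.17 to 5.64) in the other 394. Among the sites named in this report, later ranks never came with a higher window fold. The ranks of those 71, all 2537 or later, are therefore built in by how they were picked. The window fold is itself computed from the ChIP and input reads of a window. Higher input in the 71 is thus also in part built in. The overlap of early ranks with strong sites is therefore in part built in by the rule.

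Most strong sites were short, as were the other peaks. The deposited length of strong sites had a median of 77 bp (exact interval 72 to 85) and ran from 29 bp to 740 bp. In the others the median was 84 bp (82 to 86), and the intervals overlapped. The deposited length equalled the distance from the forward to the reverse summit in 374 sites (80.4%), so it mostly reports strand spacing. That distance had a median of 65 bp (60 to 72; interquartile range 37 to 100) against 68 bp in the others, and lay between 20 and 100 bp in 280 sites (60.2%, 55.6% to 64.7%) and in 55.0% of the others (53.5% to 56.5%). In the spacing of their strands, strong and other peaks were thus alike to within 3 bp at the median. The deposited strand balance, the weaker over the stronger strand's fold, had a median of 0.848 against 0.842.

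Long sites were the exception. A length of 200 bp or more was found in 67 strong sites (14.4%, 11.3% to 17.9%) and 15.5% of the others. The summit order was inverted or the distance 0 in 49 strong sites (10.5%, 7.90% to 13.7%), and 48 of these 49 were long. Among the other peaks the share inverted or at 0 was 12.5% (11.5% to 13.5%), with overlapping intervals. The long sites held a median of 143 ChIP reads and 8.73 input reads per site (8.04 to 9.47), and their busiest window took a median of 37.0% of ChIP reads against 44.2% in all strong sites. The longest, on chromosome 8 (124846335 to 124847074, 740 bp), held 240 ChIP and 21 input reads, with the reverse summit 50 bp before the forward one. At the short end, a 29 bp site on chromosome 15 (86014741 to 86014769) held 75 ChIP and 2 input reads. The busiest input window lay outside the deposited start and end in 305 strong sites (65.6%) and in 59.0% of the others. The counts therefore cover more than the printed interval.

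Chromosome 15 was the richest in strong sites. It held 102 of the 465 (21.9%, 18.3% to 26.0%) and 12.7% of all listed peaks. Of its 591 listed peaks 17.3% were strong (14.3% to 20.6%), against 8.97% (8.11% to 9.89%) of the 4047 elsewhere. These intervals treat peaks as independent, although peaks cluster. Chromosomes 8, 11 and 4 followed with 58, 51 and 50 strong sites, and their shares of 11.6%, 8.51% and 10.1% stood near the 10.0% of the whole list. Chromosome 12 had 14 strong sites among 98 peaks (14.3%, 8.04% to 22.8%), an interval that includes the share of the whole list.

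Few or no strong sites were found on several chromosomes. Chromosomes 9, 16, 17 and 18 together held 10 among 357 listed peaks. Chromosome 17 had 4 of 142 (2.82%, 0.773% to 7.06%) and chromosome 9 had 2 of 93 (2.15%, 0.262% to 7.55%), both with upper limits below the share of the whole list. The upper limits of chromosome 16 (3 of 85, 9.97%) and chromosome 7 (15 of 246, 9.86%) also lay just below it. The single site on chromosome 18 (38351980 to 38352014) had 98 ChIP and 4 input reads and 4 weaker neighbours within 10 kb. Chromosomes 14, 19 and X held no strong site. For the 53 peaks of chromosome 19 the exact upper limit was 6.72%, whereas for the 19 peaks of chromosome 14 (17.6%) and the 3 of X (70.8%) the list was too short to show a lower share. Input per other peak was 3 on chromosome 17, 3.07 on 9, 3.26 on 16, 3.43 on 19 and 3.45 on 7. All these lay below the 4.20 of the other peaks as a whole, as did chromosomes 14 (2.42) and X (2.33). Chromosome 18, by contrast, had 5.94. Chromosomes 5 and 12, with shares of 11.1% and 14.3%, also lay below 4.20, at 3.71 and 4.06. So did chromosomes 1 and 10, with shares of 10.2% and 11.2%, at 3.74 and 4.13. Chromosomes 2, 3 and 11 had 3.87, 3.77 and 4.06, with shares of 8.03%, 8.51% and 8.51%. Input below 4.20 was thus not particular to chromosomes with few strong sites. The part of DNA amount in these shares was not tested.

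**Figure D4:**
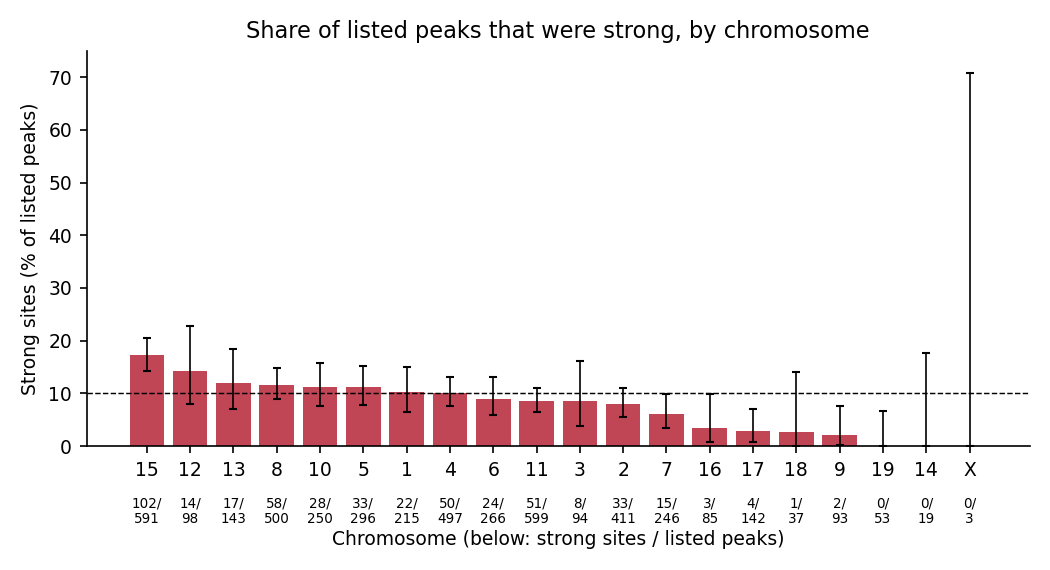
Share of listed peaks that were strong sites (y axis, percent, with exact 95% binomial intervals) on each chromosome (x axis), with the counts printed below and the share of the whole list, 10.0%, as a dashed line. Chromosome 15 is the highest at 17.3%, and the intervals of chromosomes 7, 16, 17, 9 and 19 end below the line.

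In bins of 1 Mb, strong sites occupied 227 of the 800 bins that held any listed peak. A single strong site was found in 137 bins, 2 in 40 bins, 3 or 4 in 27 bins, and 5 or more in 23 bins. Those 23 bins held 156 strong sites (33.5%) and 18.5% of listed peaks. The fullest was 78 to 79 Mb of chromosome 15, with 14 strong sites among 73 peaks, spread from 78348311 to 78986601. Next came 140 to 141 Mb of chromosome 4 with 12 among 82. Then followed 125 to 126 Mb of chromosome 5 with 9 among 39 and 79 to 80 Mb of chromosome 10 with 9 among 38. Bins with 8 were 124 to 125 Mb of chromosome 8 (46 peaks), 102 to 103 Mb and 82 to 83 Mb of chromosome 15 (42 and 31 peaks) and 88 to 89 Mb of chromosome 6 (28 peaks). A further 5 bins had 6 strong sites each, at 122 to 123 and 123 to 124 Mb of chromosome 8 and at 76 to 77, 85 to 86 and 101 to 102 Mb of chromosome 15.

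These 13 bins differed in how much their strong sites exceeded their surroundings in input. On chromosome 10 at 79 to 80 Mb strong sites had 3.78 input reads per site and the other peaks 3.31, with 82 to 186 ChIP reads. On chromosome 6 at 88 to 89 Mb they had 8.88 and 5.65, with 107 to 299 ChIP reads, and 28.6% of the bin's peaks were strong (13.2% to 48.7%). On chromosome 5 at 125 to 126 Mb they had 8.33 and 5.53. Strong sites had more input per site than the other peaks in all 13 bins. At the opposite end, 12 strong sites were the only listed peak of their bin, and 30 of the 136 bins with 10 or more listed peaks held no strong site. The densest of those, 120 to 121 Mb of chromosome 11, held 20 peaks, for which a count of 0 leaves an exact upper limit of 16.8%.

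Strong sites were a larger share of the list where peaks were dense. In bins with 1 to 5 listed peaks 6.66% were strong (5.31% to 8.23%), in bins with 6 to 20 peaks 9.36% (8.13% to 10.7%), and in bins with over 20 peaks 13.8% (12.02% to 15.7%). Without chromosome 15 the shares were 6.18%, 8.59% and 12.6%, in the same order. Input per other peak rose over the 3 classes, with 3.71, 4.02 and 4.90. Per strong site it was 5.57, 5.08 and 7.15, lowest in the middle class. The part of DNA amount in the shares was not tested.

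A neighbour within 10 kb was found at 262 strong sites (56.3%, 51.7% to 60.9%), against 39.4% of the other peaks. Only weaker peaks were near in 188 sites (40.4%), another strong site in 74 (15.9%), and 203 (43.7%) stood alone. The nearest listed peak was a median of 6.98 kb away, against 16.8 kb for the others. Part of this goes with density: in bins with 1 to 5 listed peaks 18.99% of strong sites (11.0% to 29.4%) and 10.9% of other peaks (9.15% to 12.9%) had a neighbour. In bins with 6 to 20 peaks the shares were 50% (42.7% to 57.3%) and 39.4% (37.1% to 41.6%), and in bins with over 20 peaks 77.6% (71.1% to 83.2%) and 65.2% (62.5% to 67.9%). The intervals were apart in the 2 denser classes. Without chromosome 15 they overlapped at 6 to 20 peaks, with 46.5% (38.5% to 54.6%) against 38.3% (35.9% to 40.6%), and were apart at over 20, with 81.5% (73.9% to 87.6%) against 64.4% (61.3% to 67.5%).

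The pattern was not the same on every chromosome. Strong sites had the larger share with neighbours on 13 of 17 chromosomes. Some of these shares rest on few strong sites: 1 and 2 on chromosomes 18 and 9, among the 13. Chromosomes 16 and 17, with 3 and 4, went the other way. On chromosome 4, 40 of 50 strong sites had a neighbour, and 53.2% of its other peaks did. On chromosome 15 the shares were 62.7% and 58.1%. On chromosome 2, by contrast, 27 of 33 strong sites stood alone, and 18.2% had a neighbour against 29.6% of its other peaks. On chromosome 13, where 14 of 17 strong sites stood alone, the shares with a neighbour were 17.6% and 15.9%.

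Sites that stood alone had fewer reads. Their median was 105 ChIP reads, against 121 with weaker neighbours only and 140.5 with another strong site nearby. Input per site was 5.54 (5.22 to 5.87), 5.96 (5.62 to 6.32) and 7.59 (6.98 to 8.25), and the intervals of sites with another strong site lay above both others. The folds were 31.1 (29.3 to 33.0), 32.0 (30.2 to 34.0) and 28.1 (25.8 to 30.7). No other listed peak lay within 100 kb of 43 strong sites or within 1 Mb of 3. Those 3 were the chromosome 3 site described above, a site on chromosome 2 (170036988 to 170037095, 127 ChIP and 4 input reads, 1616 kb from the nearest peak) and one on chromosome 10 (4830723 to 4830798, 80 and 7 reads, 1408 kb).

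Weaker neighbours were often not much weaker. Among the 246 strong sites with at least 1 weaker peak within 10 kb, the neighbour with most reads held a median of 68.3% of the strong site's ChIP reads (interquartile range 51.2% to 91.5%), at a median distance of 3.94 kb. In 48 sites (19.5%) it held more ChIP reads than the strong site, since the rule counts the busiest window and not the region. The weaker site on chromosome 4 at 148315487 to 148315694 held 237 ChIP reads, although its strand minimum was only 16, beside a strong site of 117 (148323030 to 148323485). Of the 364 weaker peaks near a strong site 36.3% had 20 to 24 reads on the weaker strand, against 29.2% of the 3809 weaker peaks elsewhere. They held 4.85 input reads per site and those elsewhere 4.13.

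**Figure D5:**
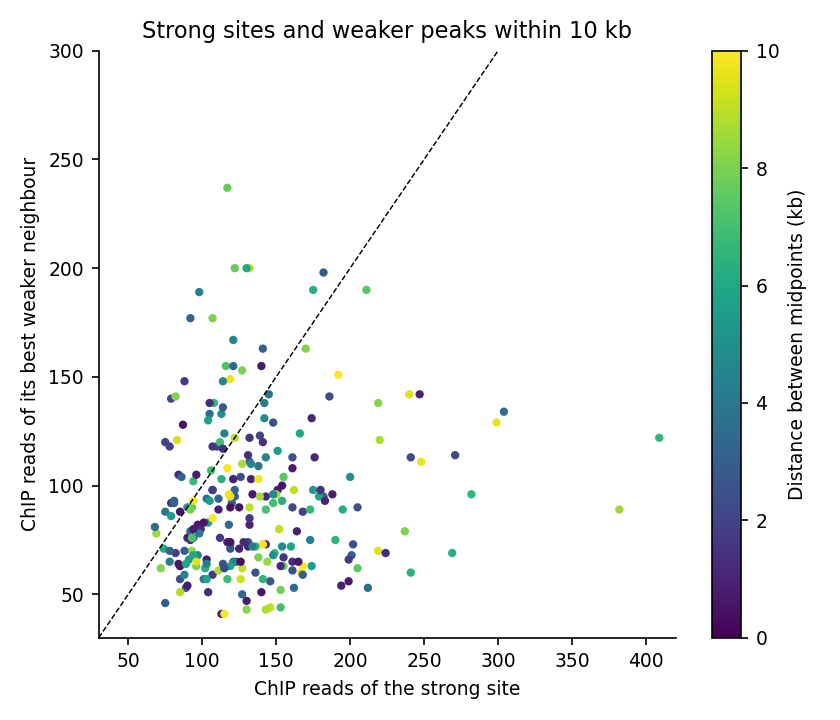
ChIP reads of each of 246 strong sites (x axis) and of the weaker listed peak with most reads within 10 kb (y axis), coloured by the distance between midpoints in kb, with a dashed line of equal reads. Most points lie below the line, with 48 above it.

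Most strong sites with company had 1 or 2 weaker neighbours (127 and 75 sites), and 44 had 3 or more. The most was 5, in 4 sites, among them one on chromosome 4 (140577013 to 140577059, 142 ChIP and 9 input reads), one on chromosome 11 (6502725 to 6502807, 132 and 7) and one on chromosome 15 (102832979 to 102833353, 110 and 3). Peaks were joined into a group where midpoints lay at most 10 kb apart, and 208 such groups contained a strong site and at least 1 other peak. In 125 of the 166 groups with exactly 1 strong site (75.3%), that site also had the most ChIP reads. Since ChIP reads chose the strong sites, this share is in part built in by the rule. A further 34 groups held 2 strong sites.

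Only 8 groups held 3 or more strong sites. The richest, on chromosome 15 (82973590 to 83004561, 10 peaks over 31.0 kb), held 5, of which 4 lay in its last part with a weaker peak (82999917 to 83000023) among them. From left to right the 5 sites had 148, 241, 176, 161 and 143 ChIP reads against 10, 16, 11, 11 and 13 input reads, folds of 15.8 to 23.0. The group on chromosome 4 (140554955 to 140616330, 17 peaks) held 4, with 122, 105, 142 and 139 ChIP reads against 4, 4, 9 and 11 input reads. On chromosome 12 (110637357 to 110659424, 7 peaks over 22.1 kb) 4 strong sites had 153, 122, 132 and 409 ChIP reads against 17, 6, 4 and 28 input reads.

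The other 5 groups held 3 strong sites each. On chromosome 7 (149711593 to 149758349, 10 peaks) these had 121, 132 and 130 ChIP reads and 5, 3 and 6 input reads, and this was the only one of the 8 groups whose most abundant peak was not a strong site. On chromosome 15 one group (78804047 to 78819304) had sites of 241, 118 and 148 ChIP reads, and another (101108002 to 101114429) sites of 136, 154 and 134 within 6.43 kb. The remaining pair lay on chromosome 5 (125693550 to 125705383), with 115, 102 and 127 ChIP reads, and on chromosome 4 (132811845 to 132820737), with 112, 94 and 93. Pooled over all their peaks, strong and weaker, the 8 groups had folds from 20.4 to 38.5. The pooled fold of all listed peaks was 27.4, which lies within that range.

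The series is titled for the imprinted gene network, and 2 stretches were looked at after their values were seen because, as background, the distal part of chromosome 7 carries the imprinted clusters of H19, Igf2 and Cdkn1c and the distal part of chromosome 12 that of Dlk1 and Meg3. H19 and Meg3 make non-coding RNAs, Igf2 a growth factor, Cdkn1c an inhibitor of the cell cycle and Dlk1 a transmembrane protein related to Notch ligands. Beyond 149 Mb of chromosome 7, 5 of 52 listed peaks were strong (9.62%, 3.20% to 21.03%), close to the share of the whole list. They pooled 677 ChIP and 17 input reads, a 57.2-fold excess (35.5 to 98.8), against 33.6-fold (29.0 to 39.1) in the other peaks there. Beside the 3 in the group above, these were the site with 174 ChIP reads and 1 input read at 150345484 and one with 120 and 2 at 152362581.

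Beyond 110 Mb of chromosome 12, 5 of 25 listed peaks were strong (20%, 6.83% to 40.7%), an interval that includes the share of the whole list. Their 948 ChIP and 59 input reads gave 23.1-fold (17.7 to 30.6), against 26.1-fold (20.9 to 33.01) in the other peaks there. The fifth site, apart from the group of 4, lay at 110833403 to 110833439, where 4 input reads stood against 132 from the ChIP (47.4-fold, 18.1 to 176.6). Input per strong site was 3.40 (1.98 to 5.44) on distal chromosome 7 and 11.8 (8.98 to 15.2) on distal chromosome 12, where 2 of the 5 sites gave 45 of the 59 reads. Per other peak it was 3.96 (3.41 to 4.57) and 4.15 (3.31 to 5.14). Which of these sites lie near which gene was not measured.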

How the data were processed

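The data are 1 table of peaks with the columns that CisGenome, a peak caller, writes, per the file headers. The submitters' processing notes name mm9. How reads were aligned, filtered and combined over replicates is not given in the sources used here. Per the labels' protocols, each library started from 10 ng of DNA, was cut from a gel at 200 bp (adapters included) and went through 18 PCR cycles, so reads are not independent molecules.

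The deposited values are whole-number read counts of ChIP and input per peak, per strand and in the busiest window. The authors also deposited a log2 fold, a false discovery rate (a p-value-like quantity), a strand balance given as a fraction, and a rank, which is a score ordering the peaks. Ranks missing from the table were not analysed here.

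Strong sites were taken with Python 3.11.15, pandas 2.3.3 and scipy 1.17.1 as peaks whose smaller busiest strand window held 25 or more reads. Input was scaled by 0.6961, the constant under which whole-number window counts with a pseudocount of 1 gave the deposited fold. Folds carry exact 95% conditional binomial (Clopper-Pearson) intervals, input reads per site exact Poisson intervals and shares exact binomial intervals. Medians carry exact order-statistic intervals. Distances are between midpoints, and bins of 1 Mb start at position 1. Routines were tested on simulated data. No test was made, because the table has 1 value per group and the ChIP reads chose the sites.

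Named sites followed a rule: the 10 with the highest strand minimum, the 5 with most input, the 10 fullest bins (13 with ties), groups with 3 or more strong sites, and extremes of length, isolation and weaker neighbours. Others were named after their values were seen. The members and lists were chosen with earlier results of these data known. A list of target genes could not be used, because no mm9 gene positions were used here.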

Additional observations from a re-analysis of the deposited data

How the results depend on the processing

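The 8 summary values were each recomputed under the settings that bear on them, 14 in all, which gave 29 values. Of these, 8 stayed within the interval of the reported value, or within 1.5 times for counts. The limit on strand reads moved most values: at 20 reads there were 1711 sites in 480 bins, with 17.1% on chromosome 15, 5.17 input reads per site, a fold of 29.0 and 48.6% with a neighbour, and at 30 reads there were 127 sites in 85 bins, with 33.9% on chromosome 15, 8.01 input reads per site and a fold of 28.3. Input per site was 5.58 among sites under 200 bp, 5.80 without chromosome 15, and 5.71 without the 5 sites with most input, which also gave a fold of 32.2 (this setting was chosen after seeing the data). The fold was 21.5 with input not scaled and 25.6 in the busiest window. The share with a neighbour was 12.5% at 1 kb, 43.2% at 5 kb, 71.2% at 20 kb and 90.8% at 100 kb. The cause was not tested where the limit on reads moved a value; distance and scaling act by construction. A false discovery rate limit of 0.01 removed 0 peaks, tests nothing and is not counted among the 14. No paired analysis was possible because the replicates are not kept apart in the values, and leaving out a replicate was not run for the same reason. Peaks under 16 reads on the weaker strand were not analysed here.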
